A study of Drosophila melanogaster with 9 samples.

Results

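The proteasome subunit genes of Drosophila S2R+ cells were taken as every gene of the count table whose FlyBase symbol begins with Prosalpha or Prosbeta, or with Rpn or Rpt followed by a digit, which gave 48 of 17562 genes. They comprised 32 main subunit genes, 1 near-copy of a main gene (Prosalpha1R, set apart though its symbol ends in R) and 15 other genes. The symbols of these 15 end in T or R, with or without a number, and they are called testis-type copies here. Of the main genes, 14 encode the 20S core particle (7 of the alpha ring and 7 of the beta ring) and 18 the 19S regulatory particle (6 ATPases and 4 other subunits of the base, and 8 subunits of the lid).

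S2R+ (stock DGRC 150) is an embryonic line of the Oregon-R strain with a hemocyte-like expression profile. RNA of 3 cultures each was sequenced from cells adapted to M3 + 10% FEx (the line named FEx10%), cells adapted to M3 + 2.5% FEx (FEx2.5%) and control cells in MB10. FEx is an extract of homogenized adult male and female flies, and the FEx media hold no serum and no added bactopeptone or yeast extract, whereas MB10 is M3 with both of these and 10% fetal bovine serum. The comparisons ask how transcripts changed when serum was replaced by extract and how they varied with the extract's concentration. Each FEx medium held 1 adapted line, the 2.5% line having been derived from the 10% line, so an effect of the medium, a change fixed in a line and the separate parts of the medium change cannot be told apart. The replicates are cultures of 1 line each, and p-values measure the spread between these cultures.

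The proteasome degrades proteins that carry a ubiquitin chain. The 19S particle binds and unfolds them with its ring of ATPases, removes the chain in its lid and threads the protein through the alpha ring of the 20S core, whose beta ring holds the caspase-like, trypsin-like and chymotrypsin-like active sites. Several subunits have additional gene copies in Drosophila that are expressed in the male germ line, where they take the place of the main subunit.

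Library totals were 20694827 to 29076620 counts, and values are given as TMM-normalized CPM, a count scaled to a fixed library total. The two-sided quasi-likelihood test of edgeR was run over 8705 genes with Benjamini-Hochberg adjustment, a call being an adjusted p under 0.05, and the fold threshold being a log2 fold change above 1 or below -1. All 32 main genes and Prosalpha1R passed the expression filter, as did 2 of the 15 testis-type copies. Of 13 hemocyte genes looked up, Pxn, srp, ush and crq were the highest. Others were low, and NimC1, a phagocytic receptor of hemocytes, had at most 0.145 CPM in any library. Mean levels in FEx10%, FEx2.5% and MB10 were 2.79, 0.777 and 0.68 CPM for He and 2.37, 2.12 and 3.37 CPM for eater. They were 2.51, 2.49 and 2.91 CPM for vkg, and 2.78, 4.23 and 4.5 CPM for Col4a1. Hml was low in FEx10% cells only, at 3.23 CPM. MB10 replicate 3 stood apart in its proteasome transcripts, since 29 of its 32 main genes lay above their own MB10 mean, against 5 in MB10 replicate 1 and 3 in MB10 replicate 2. Results that rest on it are therefore also given without it.

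Where main proteasome genes passed the test they were lower in the FEx-adapted cells, and none was higher. In FEx10%, 11 of the 32 main genes were lower than in MB10 and 21 passed the test in neither direction. In FEx2.5%, 7 were lower and 25 passed in neither direction. With Prosalpha1R and the tested copies included, 14 of 35 members, or 40%, were lower in FEx10% cells, where 27.6% of all genes tested were lower and 25.5% higher. The 14 include both Prosalpha1 and Prosalpha1R, whose counts are nearly equal and may be shared reads. In FEx2.5%, 9 of 35 members, or 25.7%, were lower, beside 22.2% of all genes lower and 22% higher, a share near that of all genes. At an unadjusted p under 0.05, 18 of the 35 members passed in FEx10% cells and 10 in FEx2.5% cells, none of them higher. Over all genes, 5060 and 4513 of 8705 passed in either direction, a larger share than of the members. DESeq2 called 1 and 0 members higher. Only Rpt3R passed the fold threshold, which 3.63% of all genes passed downward and 7.34% upward in FEx10% cells, and 2.93% downward and 5.59% upward in FEx2.5% cells. Both comparisons share the MB10 libraries, and in these bulk samples less RNA per cell and fewer cells of a kind cannot be told apart.

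The size of the shift was small. The median log2 fold change of the 32 main genes was -0.18 in FEx10% cells against MB10, with 29 genes below 0, where the median of all genes tested was -0.04 and 53.5% lay below 0. In FEx2.5% the median was -0.13, with 28 genes below 0, beside -0.04 and 54.5% over all genes. The main genes ranged in log2 fold change from -0.55 to 0.16 in FEx10% cells and from -0.43 to 0.05 in FEx2.5% cells. Without MB10 replicate 3, the medians were -0.08 and -0.05, beside -0.02 and -0.01 over all genes, and the main genes below 0 numbered 21 and 19. Of the 35 members, 10 and 6 were then called lower, and 1 was called higher in each FEx medium. In that fit 2437 and 1779 of 8798 genes were lower, so the members' shares were near those of all genes. Without MB10 replicate 2 the members called lower numbered 19 and 17, beside 2528 and 2258 of 8793 genes. Without FEx2.5% replicate 3 there were 5 in that medium, beside 1388 of 8798 genes.

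**Figure D1:**
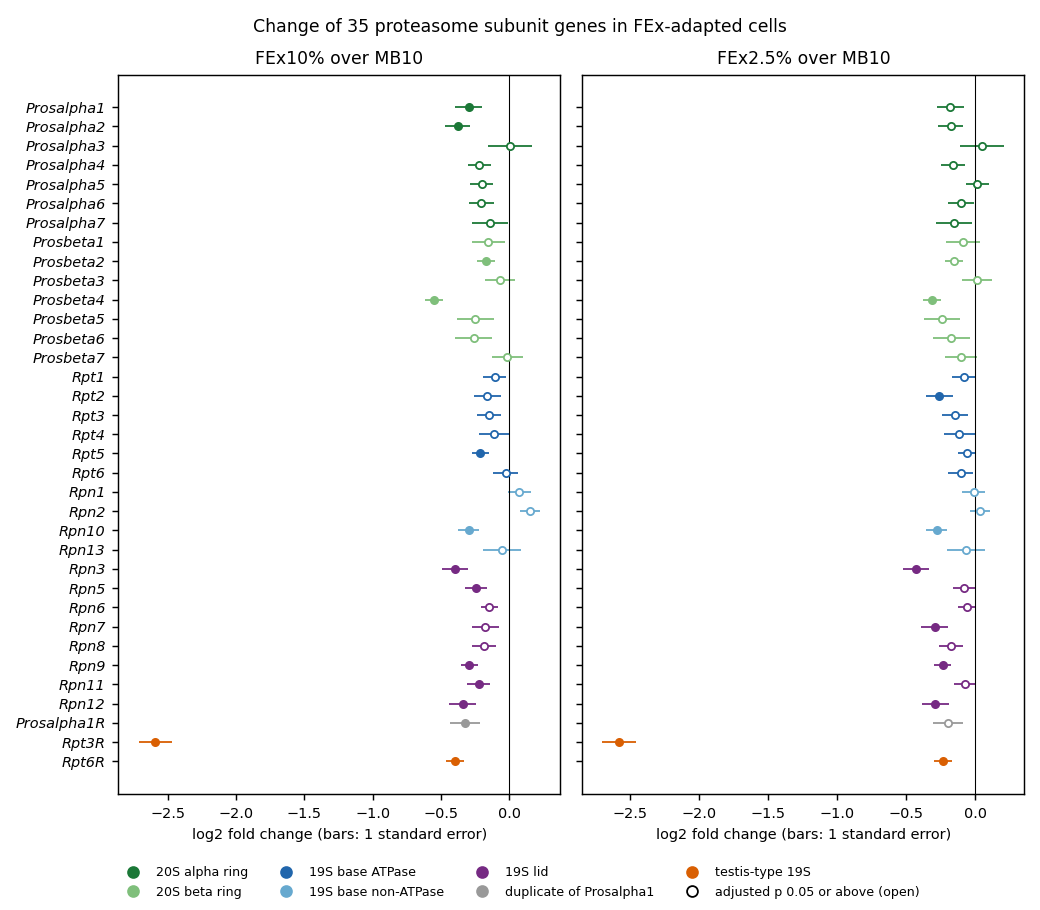
Log2 fold change of the 35 tested proteasome genes over MB10 (horizontal axis, bars of 1 standard error) in FEx10% cells (left) and FEx2.5% (right), coloured by structural class, with filled points at an adjusted p under 0.05. Main genes lie between -0.55 and 0.16, and Rpt3R alone lies near -2.6 in both panels.

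The summed level of the 32 main genes showed how far single libraries carried this shift. It was 6884, 6804 and 6663 CPM in FEx10% cells, 7117, 6989 and 6639 CPM in FEx2.5% cells, and 7261, 6954 and 8556 CPM in MB10. All 3 FEx10% libraries lay below the lowest MB10 library, while those of FEx2.5% overlapped with MB10. The highest value was that of MB10 replicate 3. In shares of all counts, the main genes took 0.668 to 0.669% in FEx10% cells, 0.675 to 0.741% in FEx2.5% cells and 0.692 to 0.848% in MB10.

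**Figure D2:**
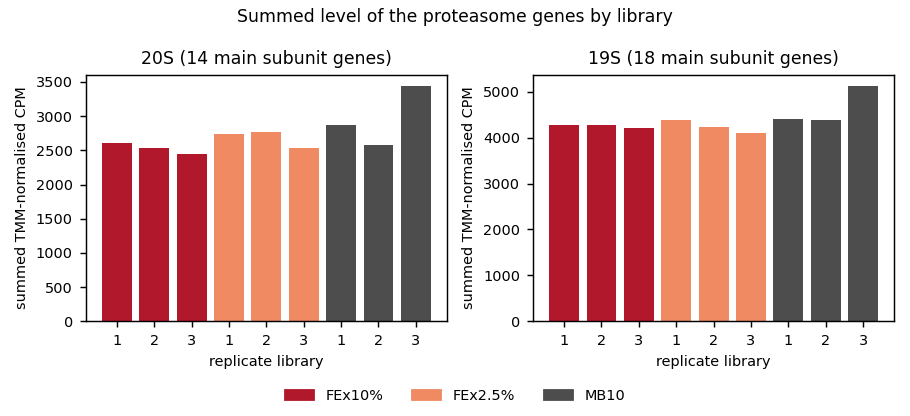
Summed TMM-normalized CPM (vertical axis) of the 14 main 20S genes (left) and the 18 main 19S genes (right), with 1 bar per replicate library in each medium. MB10 replicate 3 is the highest bar in both panels, at 3436 and 5120 CPM.

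The medians of the 20S and 19S genes lay close to each other. Of the 14 main 20S genes, 4 were lower in FEx10% cells than in MB10 (median log2 fold change -0.20) and 1 in FEx2.5% cells (median -0.15). These shares of 28.6% and 7.14% were near and below the 27.6% and 22.2% of all genes called lower. Of the 18 main 19S genes, 7 were lower in FEx10% cells (median -0.17) and 6 in FEx2.5% cells (median -0.11), or 38.9% and 33.3%. The ratio of summed 20S to summed 19S CPM was 0.610, 0.592 and 0.583 in FEx10% cells, 0.626, 0.654 and 0.617 in FEx2.5% cells, and 0.651, 0.587 and 0.671 in MB10. The ratios of each FEx line overlapped with those of MB10, those of FEx10% lay just below those of FEx2.5%, and no difference between the particles was tested. Without MB10 replicate 3 the 20S medians were -0.10 in FEx10% cells and -0.01 in FEx2.5% cells, and the 19S medians were -0.05 and -0.06.

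**Figure D3:**
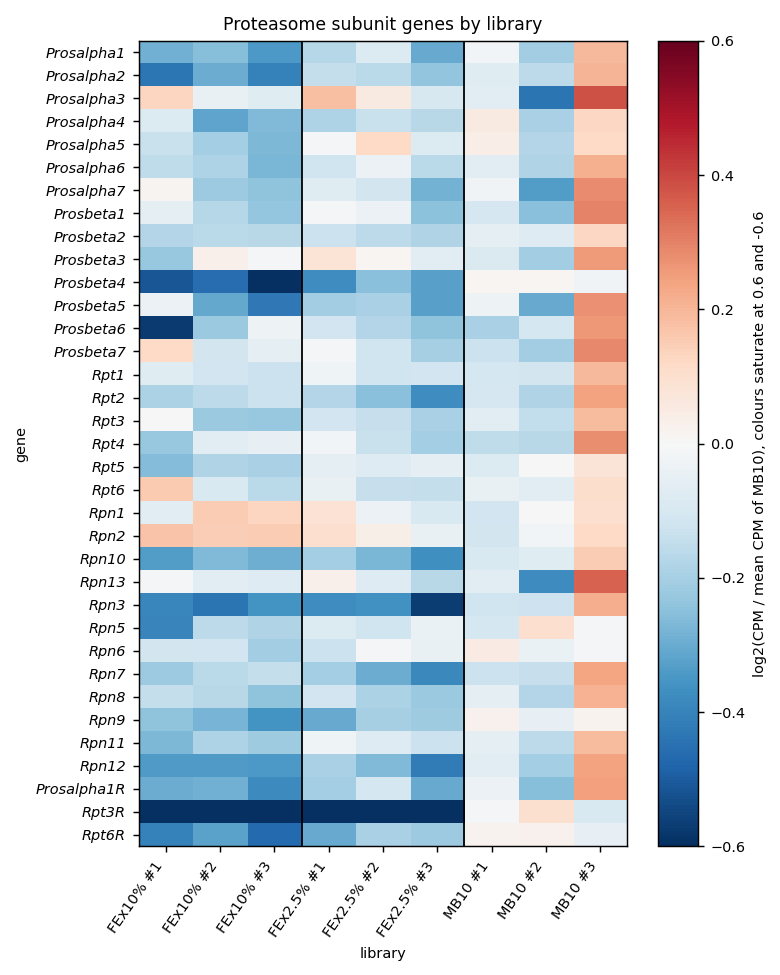
Log2 of each gene's CPM over its MB10 mean (colour, blue below and red above) for the 35 tested members (rows, by class) in the 9 libraries (columns, by medium). The FEx columns are mostly blue, and so are those of MB10 replicates 1 and 2, where 5 and 3 of the 32 main genes lie above the MB10 mean. MB10 replicate 3 is above that mean in 29 of the 32 main genes, and Rpt3R is beyond the colour range in all 6 FEx libraries.

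In the alpha ring, which forms the gated entrance of the core, 2 of 7 genes (28.6%) were lower in FEx10% cells, near the 27.6% of all genes. None was called in FEx2.5% cells, where 22.2% of all genes were lower. In that medium 0 of 7 had an unadjusted p under 0.05 with edgeR, beside 4513 of 8705 genes in either direction, and DESeq2 called 0. Prosalpha2 (FBgn0086134) had 248, 272 and 253 CPM in FEx10% cells, 303, 299 and 284 CPM in FEx2.5% cells, and 318, 300.1 and 385 CPM in MB10. All FEx10% libraries lay below all MB10 libraries, and the FEx2.5% libraries overlapped with MB10. Its log2 fold change was -0.38 ± 0.09 (SE, adjusted p = 0.00355) in FEx10% cells and -0.18 ± 0.09 (adjusted p = 0.12) in FEx2.5% cells. Prosalpha3, whose N-terminal tail closes the gate in yeast, was the only alpha gene with a log2 fold change above 0 in FEx10% cells (0.01 ± 0.16). It ranged widely within MB10, at 149, 114.9 and 203 CPM. Without MB10 replicate 3 its log2 fold change was 0.29 (adjusted p = 0.0369) in FEx2.5% cells, the only member then called higher there.

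Prosalpha1 has a near-copy, Prosalpha1R, 1735 bp away on the same strand of chromosome arm 2R (Prosalpha1 at 7827303 to 7828678 and Prosalpha1R at 7830413 to 7831771, BDGP6). Counts of Prosalpha1R were 97.4 to 104% of those of Prosalpha1 in the 9 libraries, so the pair cannot be told apart where reads are shared. Prosalpha1 had 360.2, 368 and 346 CPM in FEx10% cells, 390.5, 415 and 356 CPM in FEx2.5% cells, and 435, 380.4 and 503 CPM in MB10. The FEx10% libraries lay below MB10 and those of FEx2.5% overlapped with it. The log2 fold change in FEx10% cells was -0.30 ± 0.10 for Prosalpha1 (adjusted p = 0.0229) and -0.32 ± 0.11 for Prosalpha1R (adjusted p = 0.0253). With the counts of both genes added, an alternative chosen after seeing the data, it was -0.31 ± 0.11 (adjusted p = 0.0284). Neither was called in FEx2.5% cells, at -0.18 and -0.20, and neither call in FEx10% cells was kept without MB10 replicate 3 (-0.19 and -0.18, adjusted p = 0.0611 and 0.0696), nor without FEx10% replicate 1 or 3 or MB10 replicate 1, and that of Prosalpha1R was also lost without FEx10% replicate 2. Of the other alpha genes, Prosalpha4, Prosalpha5, Prosalpha6 and Prosalpha7 had log2 fold changes of -0.22 to -0.14 in FEx10% cells and -0.16 to 0.01 in FEx2.5% cells, and none was called.

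In the beta ring, Prosbeta4 had the largest change of all main genes in FEx10% cells. Prosbeta4 (FBgn0032596, 2L at 16731180 to 16732133) is a beta subunit without an active site. It had 104, 108 and 92.2 CPM in FEx10% cells, 114, 124 and 118 CPM in FEx2.5% cells, and 149, 149 and 146 CPM in MB10. The media formed 3 separate sets with no overlap, with the lowest values in FEx10% cells and the highest in MB10, and MB10 replicate 3 was not above the other MB10 libraries. Against MB10 the level was lower by 31.6% in FEx10% cells (log2 fold change -0.55 ± 0.07, adjusted p = 3.28e-05) and by 19.6% in FEx2.5% cells (log2 fold change -0.32 ± 0.07, adjusted p = 0.00278).

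Of the catalytic genes, Prosbeta1 and Prosbeta5 passed the test in neither FEx line, and Prosbeta2 passed in FEx10% cells. Prosbeta1, the caspase-like subunit, had 102, 94.1 and 90.1 CPM in FEx10% cells, 105, 104 and 89.5 CPM in FEx2.5% cells, and 98.8, 89.0 and 130.1 CPM in MB10. Prosbeta5, the chymotrypsin-like subunit, had 348, 288 and 265 CPM in FEx10% cells, 308, 310.4 and 284 CPM in FEx2.5% cells, and 349, 289 and 430 CPM in MB10. For both genes the libraries of the FEx media overlapped with those of MB10, in which replicate 3 was the highest. Log2 fold changes of Prosbeta1 were -0.15 ± 0.12 in FEx10% cells and -0.09 ± 0.12 in FEx2.5% cells (adjusted p = 0.316 and 0.565). Those of Prosbeta5 were -0.25 ± 0.13 and -0.24 ± 0.13 (adjusted p = 0.141 and 0.159). Those of Prosbeta1 turned to 0.02 and 0.08 without MB10 replicate 3. Prosbeta5 was called lower in both media without MB10 replicate 2, and moved to -0.09 and -0.08 without MB10 replicate 3.

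Prosbeta2, the trypsin-like subunit, had 109, 110.3 and 110 CPM in FEx10% cells, 113, 111 and 109 CPM in FEx2.5% cells, and 119, 117 and 135 CPM in MB10. The FEx libraries lay close together and below every MB10 library. The log2 fold change was -0.17 ± 0.06 in FEx10% cells (adjusted p = 0.042) and -0.16 ± 0.06 in FEx2.5% cells (adjusted p = 0.0661). The call in FEx10% cells was lost under every other scaling and filter, with DESeq2, the replicate block and only the media compared, and with any library other than MB10 replicate 2 left out (adjusted p = 0.0649 with DESeq2). Prosbeta3, Prosbeta6 and Prosbeta7, structural members of the ring, had log2 fold changes of -0.26 to -0.01 in FEx10% cells and -0.18 to 0.01 in FEx2.5% cells, and none was called.

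The ATPases of the 19S base, which unfold the substrate, had the tightest spread of changes among the classes, with log2 fold changes of -0.21 to -0.02 in FEx10% cells and -0.26 to -0.06 in FEx2.5% cells. In each FEx line 1 of the 6 was lower, or 16.7%, below the 27.6% and 22.2% of all genes lower in FEx10% and FEx2.5% cells. Rpt5, whose C-terminal tail helps to open the gate in yeast, had 224, 236 and 233 CPM in FEx10% cells, 257, 254 and 258 CPM in FEx2.5% cells, and 253, 267 and 282 CPM in MB10. It was below MB10 in all FEx10% libraries, and the values in FEx2.5% cells fell among those of MB10. The log2 fold change was -0.21 ± 0.06 in FEx10% cells (adjusted p = 0.0121) and -0.06 ± 0.06 in FEx2.5% cells (adjusted p = 0.436). The call in FEx10% cells was lost when only the FEx10% and MB10 libraries were fitted.

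Rpt2, the ATPase that controls gate opening in yeast, was called in FEx2.5% cells only, though the direct comparison of the FEx lines did not call it. It had 211, 216 and 220.5 CPM in FEx10% cells, 213, 203 and 186 CPM in FEx2.5% cells, and 225, 213 and 285 CPM in MB10. The log2 fold change was -0.16 ± 0.10 in FEx10% cells (adjusted p = 0.195) and -0.26 ± 0.10 in FEx2.5% cells (adjusted p = 0.0477), and libraries of each FEx medium overlapped with MB10. Without MB10 replicate 3 it was -0.02 in FEx10% cells and -0.12 in FEx2.5% cells, and the call was lost, as it was with any library other than MB10 replicate 2 left out, with DESeq2 and both other scalings, with the filter of 10 counts in every library, with the replicate block and with only the media compared. Rpt1, Rpt3, Rpt4 and Rpt6, the other ATPases, were not called in either medium. Rpt1 lies within CG17985 on the same strand over 1515 bp, so its counts are uncertain where reads fall in both.

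Of the 4 other subunits of the base, only Rpn10 was called, or 25% in each FEx line, beside 27.6% and 22.2% of all genes lower. Rpn10 (FBgn0015283, 3L at 21537000 to 21538582) is a ubiquitin receptor between base and lid. It had 116, 122 and 119 CPM in FEx10% cells, 127, 121 and 113 CPM in FEx2.5% cells, and 137, 139 and 162 CPM in MB10. Every FEx library lay below every MB10 library, with log2 fold changes of -0.30 ± 0.07 in FEx10% cells (adjusted p = 0.00522) and -0.28 ± 0.07 in FEx2.5% cells (adjusted p = 0.0095), the second of which was not called without FEx2.5% replicate 3. Rpn13, the other dedicated ubiquitin receptor, had -0.05 ± 0.14 and -0.07 ± 0.14, which turned to 0.17 and 0.15 without MB10 replicate 3. Rpn1, a scaffold of the base that binds shuttle factors, had 0.08 ± 0.08 and -0.01 ± 0.08.

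Rpn2, which anchors Rpn13 in the base and is described here after its values were seen, was the one main gene with all FEx10% libraries above all MB10 libraries. It had 407, 400 and 401 CPM in FEx10% cells, 387, 370 and 350 CPM in FEx2.5% cells, and 334, 357 and 392 CPM in MB10. The log2 fold change in FEx10% cells was 0.16 ± 0.07 (adjusted p = 0.0906) and did not pass the test. It was called higher by DESeq2 and, with edgeR, without MB10 replicate 3 (log2 fold change 0.22, adjusted p = 0.0145). In FEx2.5% it was 0.03 ± 0.07.

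The lid, which holds the deubiquitinase, has 8 genes. Of these, 5 were lower in FEx10% cells (median log2 fold change -0.23), beside 27.6% of all genes, and 4 in FEx2.5% cells (median -0.21), beside 22.2%, and all 8 were below 0 in both. With MB10 replicate 3 left out, 4 (50%) were lower in FEx10% cells, beside 2437 of 8798 genes. In FEx2.5% cells 2 (25%) were then lower, beside 1779 of 8798 genes, with Rpn11 at 0.03 and 7 lid genes below 0. Rpn3 (FBgn0261396, 2L at 19051790 to 19053681), a scaffold subunit of the lid, had 126, 121 and 128 CPM in FEx10% cells, 127, 128 and 111 CPM in FEx2.5% cells, and 152, 151 and 191 CPM in MB10. Every FEx library lay below every MB10 library. Its level was lower by 24.0% in FEx10% cells (log2 fold change -0.40 ± 0.09, adjusted p = 0.00348) and by 25.9% in FEx2.5% cells (log2 fold change -0.43 ± 0.09, adjusted p = 0.00292). Without MB10 replicate 3 the log2 fold changes were -0.28 and -0.31, and both calls were kept.

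The other lid genes differed in which medium they passed in. Rpn9 and Rpn12, structural lid subunits, were lower in both, with log2 fold changes of -0.29 and -0.34 in FEx10% cells and of -0.24 and -0.29 in FEx2.5% cells. Rpn9 varied little within any medium, at 215, 209 and 198 CPM in FEx10% cells, 206, 221 and 219 CPM in FEx2.5% cells, and 258, 245 and 257 CPM in MB10, a gene shown after its values were seen. Rpn5, a scaffold subunit, and Rpn11, the deubiquitinase itself, were lower in FEx10% cells (-0.24 and -0.22) and not called in FEx2.5% cells (-0.08 each). Rpn7 was lower in FEx2.5% cells (-0.30) and not called in FEx10% cells (-0.17). Several of these calls rested on single libraries when each of the 9 was left out in turn. The call of Rpn11 in FEx10% cells was kept only without MB10 replicate 2. That of Rpn5 was lost without FEx10% replicate 1 or MB10 replicate 2. In FEx2.5% cells, the call of Rpn7 was lost without FEx2.5% replicate 2 or 3 or MB10 replicate 3, that of Rpn12 also without FEx10% replicate 2 or MB10 replicate 1, and that of Rpn9 without FEx2.5% replicate 1. Rpn6 and Rpn8, of which Rpn8 is the partner of the deubiquitinase, were called in neither, at -0.14 and -0.18 in FEx10% cells and -0.06 and -0.17 in FEx2.5% cells. None of these calls shows that the FEx media differ for a gene, and the direct comparison of the FEx media called none of the lid genes.

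That direct comparison, FEx10% against FEx2.5%, gave the fewest calls among the proteasome genes. Of the 35 members 1 was lower and none higher, beside 11.3% of all genes lower and 10.5% higher, and no member passed the fold threshold, which 1.05% passed downward and 2.42% upward. In all, 5 of the 35 had an unadjusted p under 0.05, a smaller share than the 3017 of 8705 over all genes. DESeq2 called 1 member lower and none higher, as edgeR did. The member was Prosbeta4, lower by 14.9% in FEx10% cells (log2 fold change -0.23 ± 0.07, adjusted p = 0.0285). The call was lost without FEx10% replicate 1 or 3, or without FEx2.5% replicate 2 or 3, while 2 members were called without MB10 replicate 2 and 3 without MB10 replicate 3. The median of the 14 main 20S genes was -0.07 and that of the 18 main 19S genes -0.003, beside -0.001 over all genes.

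The testis-type copies were nearly silent, apart from a pair of ATPase copies. Of the 15 copies, 8 had no count in any library, namely Prosalpha4T1, Prosalpha4T2, Prosalpha6T, Prosbeta4R1, Prosbeta4R2, Prosbeta5R1, Prosbeta5R2 and Rpn13R. A count of 0 allows up to 3 counts, which is 0.103 CPM in the deepest and 0.145 CPM in the shallowest library. Another 4 had 1 to 4 counts over all 9 libraries, namely Prosalpha3T, Prosbeta2R1, Rpn12R and Rpt4R. Prosbeta2R2, a copy of the trypsin-like subunit gene, had 10, 1 and 7 counts in FEx10% cells, 3, 3 and 3 counts in FEx2.5% cells, and 0, 2 and 3 counts in MB10. It did not pass the expression filter and was not tested. The remaining copies, Rpt3R and Rpt6R, both belong to the 19S base.

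Rpt3R had the largest change of any proteasome gene in both FEx media. Rpt3R (FBgn0037742) is a copy of the ATPase gene Rpt3 on chromosome arm 3R at 9754735 to 9756510, with 2 exons. It had 61, 45 and 43 counts in FEx10% cells, 57, 52 and 43 counts in FEx2.5% cells, and 249, 313 and 263 counts in MB10. The FEx libraries lay far below every MB10 library, and MB10 replicate 3 was the lowest of the MB10 libraries in CPM. The means were 2.09 ± 0.0679 CPM in FEx10% cells, 2.11 ± 0.313 CPM in FEx2.5% cells and 12.6 ± 0.835 CPM in MB10 (SD, n = 3 each). The transcript was 6.03-fold lower in FEx10% cells (log2 fold change -2.59 ± 0.12, adjusted p = 7.03e-09) and 5.98-fold lower in FEx2.5% cells (log2 fold change -2.58 ± 0.12, adjusted p = 9.92e-09). Between the FEx media the log2 fold change was -0.01 ± 0.15.

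The main gene Rpt3 was not called in either FEx line. It had 213, 183 and 182 CPM in FEx10% cells, 197, 194 and 187 CPM in FEx2.5% cells, and 204, 192 and 244 CPM in MB10. Its log2 fold change was -0.15 ± 0.09 in each FEx medium, with overlapping libraries. The counts of Rpt3R were 1.09% of those of Rpt3 in FEx10% cells (range 1.02 to 1.14%), 1.09% in FEx2.5% cells (0.955 to 1.22%) and 6.01% in MB10 (4.87 to 7.03%). Rpt3R overlaps Alg12, a mannosyltransferase gene on the opposite strand, over 20 bp. Alg12, at 35.4, 35.9 and 42.2 CPM in FEx10%, FEx2.5% and MB10, was lower by a log2 fold change of -0.25 in FEx10% cells and -0.23 in FEx2.5% cells. Tti1, a gene on the same strand 49 bp away, had -0.12 and -0.14 and was not called.

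**Figure D4:**
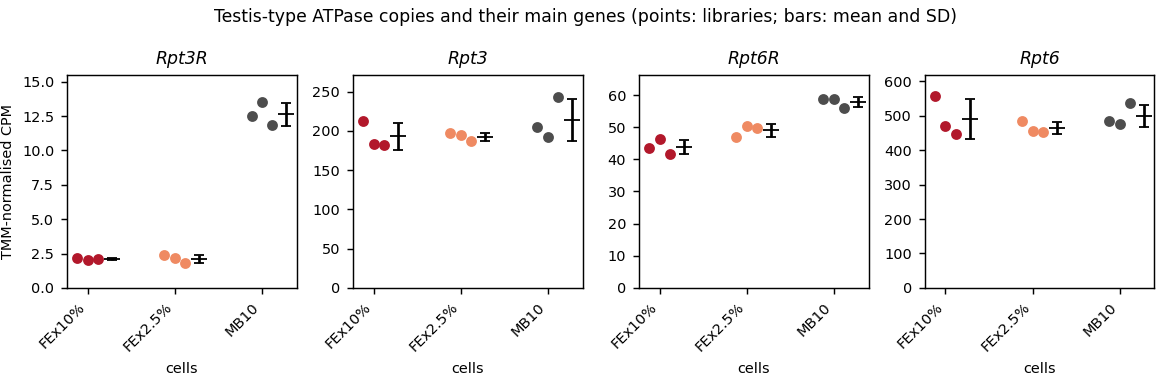
TMM-normalized CPM (vertical axes from 0, separate scales) of the testis-type ATPase copies Rpt3R and Rpt6R beside their main genes Rpt3 and Rpt6 in the 9 libraries, with mean and SD to the right of each group. Rpt3R averages 2.09 and 2.11 CPM in the FEx media and 12.6 CPM in MB10, while the libraries of Rpt3 and Rpt6 overlap between media.

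Rpt6R (FBgn0039788, 3R at 30582198 to 30583697), a copy of the ATPase gene Rpt6, had 30.4, 33.9 and 40.0 CPM per kb in FEx10%, FEx2.5% and MB10, against 1.44, 1.45 and 8.70 CPM per kb for Rpt3R. It had 43.6, 46.2 and 41.8 CPM in FEx10% cells, 46.9, 50.5 and 49.7 CPM in FEx2.5% cells, and 58.7, 58.8 and 55.9 CPM in MB10. As with Prosbeta4, the media formed 3 sets without overlap, lowest in FEx10% cells and highest in MB10. The level was lower by 24.1% in FEx10% cells (log2 fold change -0.40 ± 0.06, adjusted p = 0.000298) and by 15.2% in FEx2.5% cells (log2 fold change -0.24 ± 0.06, adjusted p = 0.011), where the call was lost without FEx2.5% replicate 1 or MB10 replicate 1, and with library totals as the only scaling. Between the FEx media it was -0.16 ± 0.07 (adjusted p = 0.103). Per kilobase of exon, Rpt6R stood at 8.77% of Rpt6 in FEx10% cells, 10.3% in FEx2.5% cells and 11.3% in MB10. Rpt6 itself had log2 fold changes of -0.02 ± 0.09 and -0.11 ± 0.09 and was not called.

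Markers of the testis, one tissue of the flies in the extract, were looked up beside these copies. Of 16 testis genes, 6 were at 0 in all libraries (Mst84Da, Mst84Db, Mst84Dc, Mst98Ca, Mst98Cb and dj, genes of late sperm development). The summed level was 22.8 to 25.6 CPM in FEx10% cells, 23.1 to 23.9 CPM in FEx2.5% cells and 138 to 150 CPM in MB10. In MB10 most of it came from bam, a differentiation factor of the germ line, which stood at 12.8 ± 0.884 CPM in FEx10% cells, 10.8 ± 0.346 CPM in FEx2.5% cells and 127 ± 7.24 CPM in MB10 (SD, n = 3 each). Of the list 3 genes were tested, and bam (log2 fold change -3.31 and -3.56) and topi, a testis transcription factor (-0.55 and -0.42), were lower in both FEx media. In the FEx media topi made up much of the rest of the sum, at 11.03 and 12.1 CPM, against 16.2 CPM in MB10. The part of these genes in the change of Rpt3R was not tested.

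Levels of different genes were compared per kilobase of exon, since counts grow with transcript length. The main subunits of a particle are needed in equal numbers, but their transcripts spanned a range of 6.16-fold in FEx10% cells, 6.74-fold in FEx2.5% cells and 7.29-fold in MB10. Prosalpha1 was the highest, at 370, 400 and 453 CPM per kb in FEx10% cells, FEx2.5% and MB10, though its reads may be shared with Prosalpha1R. Rpt6 followed in FEx10% cells, at 349 ± 41.8 CPM per kb against 370 ± 11.7 for Prosalpha1 (SD, n = 3), a gap within the spread of the libraries. Rpn13 was the lowest in every medium, at 60.0, 59.3 and 62.2 CPM per kb in the same order of media. The median of the 14 20S genes was 155 CPM per kb in FEx10% cells, 157 in FEx2.5% cells and 174 in MB10, and that of the 18 19S genes was 124, 124 and 143. Within the 20S core, the chymotrypsin-like gene Prosbeta5 was the highest beta gene and the trypsin-like gene Prosbeta2 the lowest, at 263 and 106 CPM per kb in FEx10% cells, 264 and 107 in FEx2.5% cells, and 312 and 119 in MB10.

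**Figure D5:**
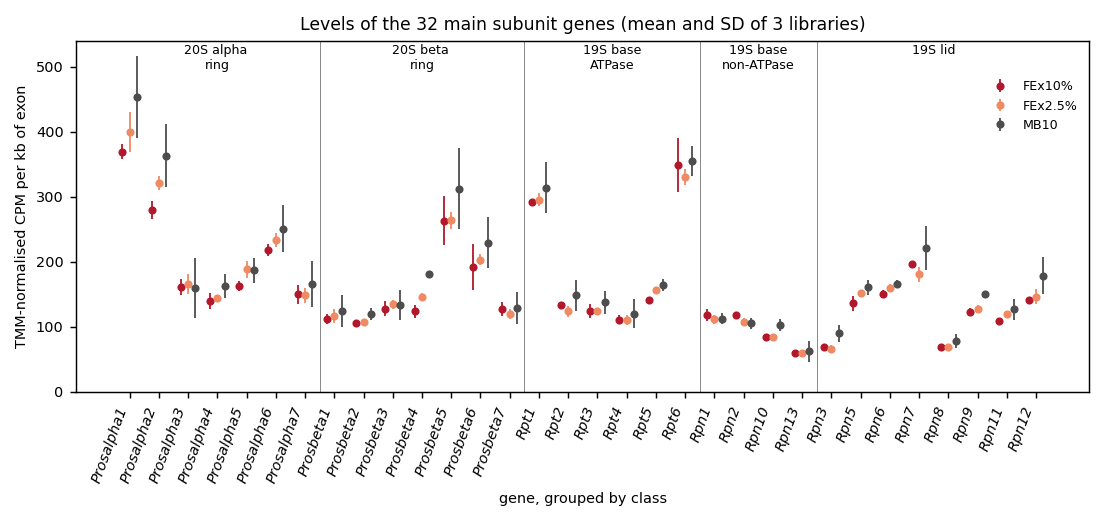
Level of each of the 32 main subunit genes in TMM-normalized CPM per kb of exon (vertical axis, mean and SD of 3 libraries) in the 3 media, with genes grouped by class along the horizontal axis. Prosalpha1 is highest in each medium and Rpn13 lowest, at 60.0, 59.3 and 62.2 CPM per kb in FEx10% cells, FEx2.5% and MB10.

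The main genes were described by exon number and position, without a comparison to all genes. They had 1 to 5 exons (median 3), 4 of them a single exon (Prosbeta3, Rpt1, Rpn7 and Rpn12), and they were spread over 5 chromosome arms, with 10 on 2R, 9 on 3R, 5 on 3L, 4 on 2L and 4 on X. The testis-type copies had 1 to 3 exons (median 2), and 6 of the 15 had a single exon. By whole gene spans, introns included, 15 of the 32 main genes overlap a gene on the opposite strand. All tested members together had 19 overlaps with other genes, of which 1, that of Rpt1, was on the same strand, and 18 of the overlapping genes were tested. For members called lower in FEx10% cells, 3 of the 9 overlapping genes tested were lower and 2 higher, and in FEx2.5% cells 4 of 6 were lower and 1 higher, beside 27.6% and 25.5% of all genes in FEx10% cells and 22.2% and 22% in FEx2.5% cells.

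Other genes of the ubiquitin-proteasome pathway went in both directions. Of 22 such genes, all tested, 6 were lower and 4 higher in FEx10% cells than in MB10, and 7 were lower and 3 higher in FEx2.5% cells, with medians of -0.06 in both. Over all genes 27.6% were lower and 25.5% higher in FEx10% cells, and 22.2% and 22% in FEx2.5% cells, so these counts are no result about the list. Sem1, a small lid subunit whose symbol the rule does not take, was lower at -0.53 ± 0.09 in FEx10% cells and -0.33 ± 0.09 in FEx2.5% cells (adjusted p = 0.000512 and 0.0139). Pomp, the chaperone that assembles the 20S core, was lower at -0.55 ± 0.09 and -0.25 ± 0.09 (adjusted p = 0.00023 and 0.0369). It was also lower in FEx10% cells than in FEx2.5% cells (-0.31 ± 0.09, adjusted p = 0.0266). From the same list, PI31 (-0.003 and -0.10) and REG (-0.15 and -0.03) were called in neither FEx medium. Npl4 and Uba1 were higher in FEx10% cells (0.20 and 0.28, adjusted p = 0.0465 and 0.00906) and not called in FEx2.5% cells.

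The deubiquitinases that dock on the 19S particle were lower in FEx10% cells. Usp14 had log2 fold changes of -0.39 in FEx10% cells and -0.17 in FEx2.5% cells, and Uch-L5 had -0.37 and -0.14, the last of which was not called (adjusted p = 0.141). Rad23, a shuttle that carries ubiquitinated proteins to the proteasome, was lower at -0.55 and -0.38. The other shuttles on the list were not lower. Ubqn had 0.14 and 0.23 and was called higher in FEx2.5% cells (adjusted p = 0.035), and rngo had -0.07 and -0.02 and was not called. Among the higher genes were cnc, the Drosophila factor of the Nrf family that activates proteasome genes (0.33 ± 0.08 and 0.23 ± 0.08, adjusted p = 0.00462 and 0.0332), and Keap1, its inhibitor (0.60 ± 0.08 and 0.64 ± 0.08, adjusted p = 7.42e-05 and 7.51e-05). Between the FEx media none of the 22 was higher and 3 were lower in FEx10% cells (Pomp, Usp14 and Uch-L5).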

How the data were processed

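Poly(A) RNA libraries (TruSeq stranded) of 9 cultures were sequenced in pairs on an Illumina instrument. The authors trimmed reads with Trimmomatic (0.36), mapped them with HISAT2 (2.1.0) and counted them per gene with featureCounts (1.6.4), and the deposited values are whole-number read counts without normalization. The strand setting and the treatment of reads that map to several genes are not given in the sources used here, so overlapping genes and near-copies are uncertain. Counts were scaled by TMM and tested with edgeR (4.0.16, R 4.3.3) in 1 quasi-likelihood model of the 3 media with all 9 libraries, over genes kept by filterByExpr, and Benjamini-Hochberg adjustment was made over all genes within each comparison. Each standard error is the log2 fold change over the root of its F statistic. The fits were tested on simulated data. Symbols came from FlyBase names (17476 of 17562 IDs), and positions, exons and lengths from the Ensembl 115 annotation of BDGP6.

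Members and gene lists were chosen with earlier results of these data known. Values per library are given for catalytic genes, the gene with the largest change in each class and FEx medium, testis-type copies that were tested and genes past the fold threshold (13 genes in all), and for others as marked. Alternatives were DESeq2 (1.42.0), other scalings and filters, fits of only the media compared, a replicate block, the longest transcript as length, and leaving out each library in turn. No pairing of the libraries by replicate number was seen. A count of 0 was read as up to 3 counts per library, which covers counting error only.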

Additional observations from a re-analysis of the deposited data

How the results depend on the processing

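Members lower in FEx10% cells than in MB10 numbered 14 and ranged from 10 to 19 as single libraries were omitted, with 0 to 1 called higher. They numbered 9 when only the FEx10% and MB10 libraries were fitted, and DESeq2 called 12 lower and 1 higher. Members lower in FEx2.5% cells numbered 9 and ranged from 5 to 17 with libraries left out, with 0 to 1 higher, and were 5 with library totals as the only scaling. The calls over all genes moved with the libraries left out as well. Genes lower ranged from 1997 of 8803 to 2528 of 8793 in FEx10% cells, and from 1361 of 8805 to 2258 of 8793 in FEx2.5% cells. Members lower in FEx10% cells than in FEx2.5% cells numbered 1 and ranged from 0 to 3 with libraries left out, with none higher. They were 3 with library totals and 5 when only the FEx media were fitted. Library totals also moved the calls over all genes to 2119 higher and 1447 lower in FEx2.5% cells against MB10 (1912 and 1932 with TMM), and to 654 higher and 1338 lower between the FEx media (913 and 983 with TMM). Lost calls with library totals were Prosbeta2 in FEx10% cells and Rpn7, Rpn12, Rpt2 and Rpt6R in FEx2.5% cells, and with only the media compared Prosalpha1R, Prosbeta2, Rpn5, Rpn11 and Rpt5 in FEx10% cells and Rpn7, Rpn12 and Rpt2 in FEx2.5% cells. The causes were not tested.

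Same-numbered libraries did not deviate together (mean correlations of 0.01 for FEx10% and MB10, -0.23 for FEx2.5% and MB10, and 0.03 for the FEx media). No pairing by number was seen, though 3 libraries per medium are too few to exclude it. With the replicate block, members called lower numbered 10, 7 and 1 in the same order of comparisons. The 19S median in FEx10% cells was 128 CPM per kb by the longest transcript, against 124 by the union of exons. Prosbeta4, Rpn3 and Rpt3R were lower than in MB10 in both FEx media under every alternative. Depth limits the silent copies, for which a count of 0 allows up to 3 counts per library.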

Other observations

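Among marker genes of other tissues of the adult fly, those of the male accessory gland summed to at most 0.142 CPM in FEx10% cells, 0.0845 CPM in FEx2.5% cells and 0.346 CPM in MB10, and photoreceptor genes to at most 0.482, 0.247 and 0.259 CPM in the same order of media. The list of ovary and yolk genes summed to 8.82 to 10.1 CPM in FEx10% cells, 4.19 to 5.60 CPM in FEx2.5% cells and 5.53 to 6.43 CPM in MB10, and that of adult muscle to 53.0 to 56.8, 71.6 to 89.0 and 81.6 to 86.6 CPM. Most of each sum was 1 gene, osk (7.74, 4.44 and 4.71 CPM on average) and TpnC4 (53.7, 78.9 and 81.8 CPM), while the muscle genes Act88F, fln and up averaged at most 0.461 CPM in any medium. Of the 12 hemocyte genes tested, 6 were lower and 3 higher in FEx10% cells than in MB10, and 2 were lower and 1 higher in FEx2.5% cells, beside 27.6% and 25.5% of all genes in FEx10% cells and 22.2% and 22% in FEx2.5% cells. CG9717, which lies 323 bp from Rpt6R on the same strand, was higher by a log2 fold change of 3.35 ± 0.22 in FEx10% cells and 3.53 ± 0.22 in FEx2.5% cells, where Rpt6R was lower, and Mpi, 3112 bp from Rpt3R on the opposite strand, was lower at -0.45 ± 0.07 and -0.34 ± 0.07, while Snap24, 4795 bp from Rpt3R on the same strand, was higher at 0.26 ± 0.07 and 0.37 ± 0.07.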
